A study of Mus musculus with 12 samples.

Results

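The Rab family of small GTPases, leaving out Rab27a, the gene targeted in the knockout, was followed across wild-type and Rab27a knockout mouse neutrophils with and without a TLR9 ligand. Members were genes whose symbol is Rab followed by a number, with at most a letter and a further digit, and with at least 10 summed estimated counts in at least 3 of the 12 libraries. This kept 40 of the 56 such genes, among 15986 genes in all. Rab proteins switch between an inactive form, held in the cytosol by a GDP dissociation inhibitor, and an active, membrane-bound form that recruits effectors. Exchange factors (GEFs) switch them on and GTPase-activating proteins (GAPs) switch them off, and each Rab marks its own membranes along the routes between the endoplasmic reticulum, Golgi, endosomes, lysosomes and the cell surface. In neutrophils they are known for phagosome maturation and for the docking and release of granules, in which Rab27a has a central part.

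Mature neutrophils were taken from bone marrow by positive selection for Ly6G. They were incubated at 37 C for 6 h either with CpG-B (5 µM of ODN 1826, an oligonucleotide that activates TLR9) or without it, a condition called vehicle in 1 label and untreated in another. The 4 groups, each of 3 libraries, were unstimulated wild-type, wild-type with CpG, unstimulated Rab27a knockout and Rab27a knockout with CpG. Mice carried the strain label C57BL/6, every sample was polyA RNA from Ly6G-selected bone marrow cells, and the sources used here do not give the knockout allele. The labels number the replicates of each group without saying that they are separate animals, so the p-values rest on a spread between samples that may be only technical.

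Total estimated counts ran from 10928823 to 15513280 per library. Rab27a itself stood at 231, 251 and 335 CPM (counts scaled to library size by TMM) in unstimulated wild-type libraries and at 129, 116 and 94.9 CPM in unstimulated knockout libraries, a log2 fold change of -1.26 (SE 0.17, Benjamini-Hochberg adjusted p = 0.000365 in edgeR's quasi-likelihood test). Its reads were thus not at 0 in the knockout. Summed over 12 neutrophil markers, TPM ran from 334000 to 409000. Most of this came from S100a8 and S100a9 (means of 124000 and 185000 TPM), and the list also held Ngp, Camp and Ltf (24900, 7840 and 5390 TPM). The sum is thus not a measure of maturity. The knockout libraries numbered 1 and 3 stood apart from each other under both treatments: erythroid markers summed to 1240 and 1280 TPM in those numbered 1 and to 18700 and 17700 TPM in those numbered 3, against 10900 to 13800 TPM in wild-type libraries, and the B lineage list (4.2 to 90 TPM in knockout, 18.8 to 29.6 TPM in wild-type) and the immature granulocyte list (31.9 to 421 TPM and 135 to 203 TPM) had the same spread. No gene of these marker lists was at 0 in every library. Results in the knockout are therefore given with and without those libraries where a call depends on them.

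The summed level of the family ran from 2723 to 3457 TPM over the 12 libraries. Summed over the 40 members, TPM (a level scaled for transcript length and library) was 3005, 3136 and 2775 in unstimulated wild-type libraries, 3100, 3203 and 2723 with CpG, 3457, 3358 and 3372 in unstimulated knockout libraries and 3082, 3341 and 3117 with CpG. The unstimulated knockout libraries were the highest 3 of the 12, and the other groups overlapped. Rab7 alone had a mean of 951 TPM in the unstimulated knockout and 687 TPM in the unstimulated wild-type. Within groups, the coefficient of variation of a member in CPM had a median of 9.1% over the 40 members (range 4 to 51.7%).

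Rab7, which directs late endosomes and phagosomes to lysosomes, had the highest level by far, at a mean of 744 TPM over the 12 libraries. It alone made up 18.3 to 28.5% of the family's TPM in a library. Rab44, an unusually large Rab with calcium-binding EF hands, followed at 215 TPM, then Rab32 of phagosomes and lysosome-related organelles at 182 TPM, and Rab5c of early endosomes at 176 TPM. Below these came Rab8a of exocytic and recycling routes (141 TPM), Rab5b (135 TPM), the Golgi Rab6a (132 TPM), Rab1b of transport from endoplasmic reticulum to Golgi (114 TPM), Rab11b of recycling endosomes (113 TPM) and Rab8b (111 TPM). These 10 genes held 65.7% of the family's mean TPM. Among these 10, the ranges over libraries overlapped between neighbours in the order from Rab44 downwards, and only Rab7 (498 to 957 TPM) stood clear of the next gene (Rab44, 154 to 279 TPM). In all, 11 members had a mean of at least 100 TPM, 21 lay between 10 and 100 TPM and 8 were below 10 TPM, down to Rab15 at 1.29 TPM. For 28 of the 40 members, the highest of the 4 group means in TPM was less than 1.5 times the lowest.

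**Figure D1:**
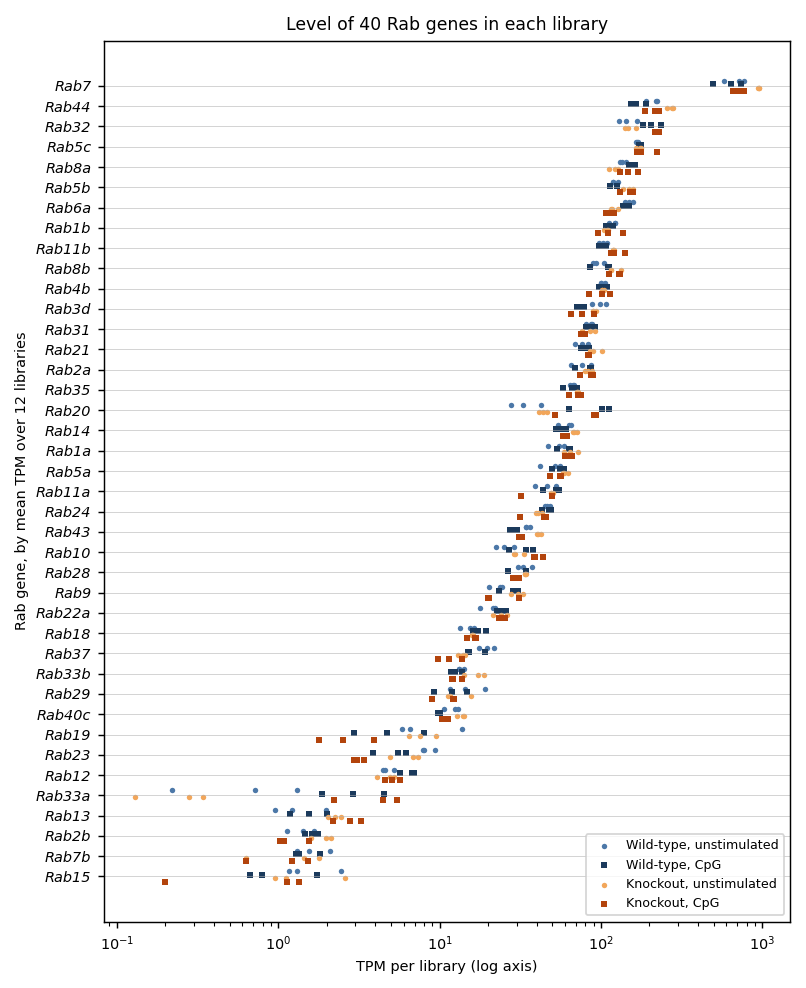
Level of the 40 Rab genes in each of the 12 libraries. The x axis is TPM on a log scale, rows are genes ordered by mean TPM, and each point is 1 library, coloured by group (3 per group). Rab7 lies to the right of every other gene, and most genes keep their place in all 4 groups, while Rab20, Rab33a, Rab19 and Rab23 spread by treatment.

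Close relatives differed widely in level. Rab5c, Rab5b and Rab5a, which share the early endosome, had mean levels of 176, 135 and 54.7 TPM. Rab11b (113 TPM) exceeded Rab11a (47.5 TPM), Rab1b (114 TPM) exceeded Rab1a (60.5 TPM) and Rab2a (81.0 TPM) exceeded Rab2b (1.54 TPM), with no overlap between the libraries of either gene in each pair. Rab4b reached 102 TPM while Rab4a had at most 4 counts in any library and was not kept. Rab6b, with at most 9 counts, was likewise not kept beside Rab6a.

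The secretory granule list held 8 genes by design, of which Rab3d (85.3 TPM), Rab37 (15.4 TPM) and Rab44 were kept. Rab3a, Rab3b and Rab3c had at most 7, 1 and 1 counts in any library. Rab27b, the closest relative of Rab27a, fell just short of the count rule: it had 9, 16 and 15 counts in the unstimulated wild-type libraries, 6, 9 and 1 with CpG, 0, 4 and 5 in the unstimulated knockout and 0, 0 and 9 in the knockout with CpG. Its counts were thus low in every group, and no library of either knockout group came above 9. Rab30, a Golgi Rab, also reached 10 counts in 2 libraries (range 0 to 17). Just inside the rule were Rab33a (8 libraries, 2 to 40 counts) and Rab15 (11 libraries, 5 to 68 counts). The other 38 members reached 10 counts in all 12 libraries. Of the 16 genes not kept, 14 had at most 9 counts in every library; these were Rab17, Rab25, Rab34, Rab36, Rab38, Rab39, Rab39b, Rab3a, Rab3b, Rab3c, Rab40b, Rab42, Rab4a and Rab6b. All 40 members passed the count filter of the test.

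With CpG, 2 Rab genes rose in wild-type neutrophils, and 9 changed once same-numbered libraries were paired, as given further on. A gene is said to rise or fall at an adjusted p of at most 0.05 in edgeR's quasi-likelihood test, adjusted by Benjamini-Hochberg over all 10802 genes tested. Of the 40 members, Rab20 and Rab32 rose and none fell, which is 2 members where 6.04% of all genes were called (4.74% higher and 1.30% lower). The median log2 fold change of the members was 0.01, against -0.007 over all genes, and 35 members lay within 0.5 of 0 on the log2 scale. In knockout neutrophils 5 members rose (Rab20, Rab32, Rab10, Rab8a and Rab33a) and 2 fell (Rab23 and Rab19), where 11.6% of all genes were called (7.57% higher and 4.06% lower). Their median log2 fold change was 0.05 against -0.006 over all genes, and 32 members lay within 0.5 of 0. With 2 and 7 of 40 members called, neither share was tested against that of all genes. Scaled by library size alone, the wild-type split became 2 risen and 2 fallen (Rab23 and Rab43), where 6.63% of all genes were called. With that scaling, the split of all genes in the knockout went from 818 higher and 439 lower to 739 and 778.

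Rab20, which acts on early endosomes and in the maturation of phagosomes, rose in both genotypes. It stood at 39.2, 29.7 and 26.5 CPM in the unstimulated wild-type libraries and at 102, 90 and 63.1 CPM with CpG. Every stimulated library was above every unstimulated one, and the log2 fold change was 1.42 (SE 0.20, adjusted p = 0.00057, edgeR's quasi-likelihood test). In the knockout it was 36.0, 39.1 and 37.5 CPM without CpG and 52.5, 81.6 and 79.1 CPM with it. The groups again did not overlap, the stimulated library numbered 1 was the lowest of its group, and the log2 fold change was 0.92 (SE 0.20, adjusted p = 0.00779, edgeR's quasi-likelihood test). Without both knockout libraries numbered 3, the adjusted p in the knockout was 0.0797 (range over the alternatives 0.000115 to 0.0797). By mean TPM, Rab20 went from 34.6 to 92.7 in wild-type and from 43.9 to 78.8 in knockout neutrophils.

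Rab32, which works on phagosomes and in the making of lysosome-related organelles, was the only other member to rise in both genotypes. Its wild-type levels were 199, 227 and 187 CPM without CpG and 276, 316 and 270 CPM with it, a log2 fold change of 0.49 (SE 0.11, adjusted p = 0.0158, edgeR's quasi-likelihood test). The knockout libraries read 194, 190 and 199 CPM without CpG and 349, 296 and 290 CPM with it, with a log2 fold change of 0.68 (SE 0.11, adjusted p = 0.000989, edgeR's quasi-likelihood test). In neither genotype did the groups overlap. The wild-type call rested on single libraries: its adjusted p was 0.0852 without unstimulated replicate 1, 0.0858 without unstimulated replicate 3 and 0.103 without CpG replicate 2 (range over the alternatives 0.000539 to 0.103).

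These are bulk samples, in which fewer cells of a type and less RNA per cell cannot be told apart. The summed TPM of 8 monocyte and macrophage markers was 1070 to 1110 in unstimulated and 1280 to 1380 in stimulated wild-type libraries, and 804 to 921 and 1200 to 1460 in the knockout. Of those 8 genes, Csf1r and Adgre1 rose with CpG in both genotypes and the other 6 did not pass the test in either. Their part in the rise of Rab20 and Rab32 was not tested.

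The 200 bases before the RefSeq start of these 2 genes, shown because they were the members called in both genotypes, are given 5′ to 3′ on the gene's strand from the RefSeq table for GRCm38.p6. Capitals mark the only match in them to the motifs searched, a PU.1 site (GAGGAAGT) 43 to 36 bases before the Rab32 start.
Rab20 promoter, chr8:11478641-11478840, minus strand: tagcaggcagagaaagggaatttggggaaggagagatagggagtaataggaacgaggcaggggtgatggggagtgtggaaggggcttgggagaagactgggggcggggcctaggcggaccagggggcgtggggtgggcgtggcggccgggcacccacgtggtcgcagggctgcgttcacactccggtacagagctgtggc
Rab32 promoter, chr10:10558208-10558407, minus strand: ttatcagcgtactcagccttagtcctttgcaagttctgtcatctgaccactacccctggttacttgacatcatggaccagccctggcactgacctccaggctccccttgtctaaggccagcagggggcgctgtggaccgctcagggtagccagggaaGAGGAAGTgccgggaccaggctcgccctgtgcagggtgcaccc
Neither stretch, nor the promoter windows of Rab10, Rab8a and Rab33a (300 bases across the start), held a match to the κB consensus or to the AP-1 motif TGANTCA on either strand. Of 27025 genes with a window in the table, 5.1% held the κB consensus, 9.0% TGANTCA and 3.7% GAGGAAGT.

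**Figure D2:**
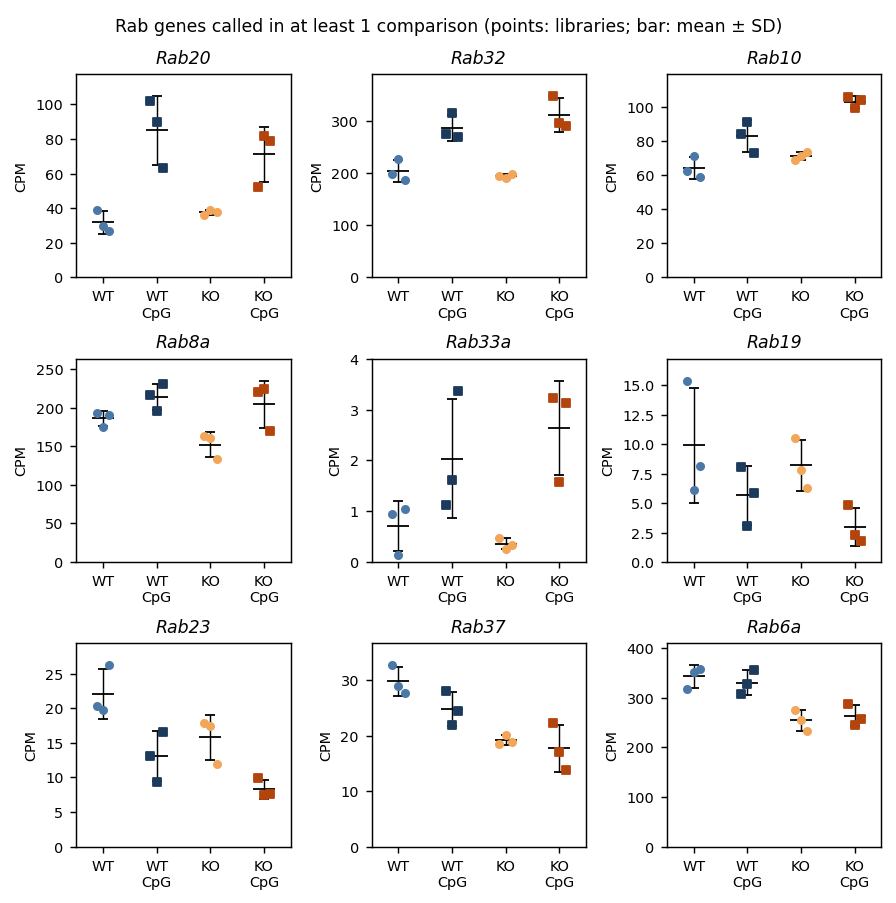
Level of the 9 Rab genes that passed the test in at least 1 comparison. The y axis is TMM-scaled CPM from 0, points are libraries, and bars are the mean ± SD of 3 libraries of wild-type (WT) and knockout (KO) neutrophils without and with CpG. Rab20 and Rab32 are higher with CpG in both genotypes without overlap, while Rab37 and Rab6a are lower in unstimulated knockout than in unstimulated wild-type libraries.

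Among the 7 early endosome and phagosome Rabs, Rab20 was the only one to pass the test in either genotype without pairing of same-numbered libraries. The other 6 had log2 fold changes of 0.00 to 0.23 in wild-type and -0.04 to 0.25 in knockout neutrophils. Rab5b (271, 285 and 285 CPM, then 281, 278 and 281 CPM with CpG) and Rab31, which sorts cargo between the trans-Golgi network and endosomes (213, 208 and 211 CPM, then 218, 204 and 210 CPM), both had a log2 fold change of 0.00 in wild-type cells. The list's median was 0.08 in wild-type and 0.13 in knockout neutrophils. Its summed level in TPM was 555 and 634 without and with CpG in wild-type cells and 625 and 656 in the knockout.

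Of the 6 late endosome, lysosome and autophagy Rabs, only Rab32 passed without pairing. Rab7 had 1050, 1110 and 885 CPM in unstimulated wild-type libraries and 917, 1040 and 787 CPM with CpG, and these ranges overlapped. In the knockout it had 1330, 1360 and 1210 CPM without CpG and 1070, 1120 and 994 CPM with it, which did not overlap, for a log2 fold change of -0.30 (SE 0.13, adjusted p = 0.186, edgeR's quasi-likelihood test). Rab29, a partner of the kinase LRRK2, had the lowest estimate of the list in wild-type cells (-0.31, SE 0.25, adjusted p = 0.652 in the same test). Rab9, which returns cargo from late endosomes to the Golgi, had a log2 fold change of 0.26 in wild-type and -0.26 in knockout neutrophils, neither past the threshold. Rab24 of autophagy (0.00 and 0.07) and Rab7b (-0.09 and 0.17) did not pass either.

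Of the 11 recycling and exocytic Rabs, none passed in wild-type neutrophils without pairing, and Rab10 and Rab8a rose in the knockout. Rab10, which carries receptors and transporters to the cell surface, was at 68.8, 71.1 and 73.6 CPM in unstimulated knockout libraries and at 106, 99.2 and 104 CPM with CpG. These groups were far apart, with a log2 fold change of 0.53 (SE 0.11, adjusted p = 0.00445, edgeR's quasi-likelihood test). The wild-type libraries read 62.5, 71.1 and 59.0 CPM without CpG and 84.4, 91.3 and 73.2 CPM with it. They did not overlap either, and the log2 fold change of 0.37 (SE 0.11) had an adjusted p of 0.0611 in the same test. Without both knockout libraries numbered 1, the adjusted p in the knockout was 0.0621 (range over the alternatives 7.58e-05 to 0.0621).

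Rab8a, of the same exocytic branch, was at 163, 160 and 133 CPM in unstimulated knockout libraries and at 220, 224 and 169 CPM with CpG. The groups were separate by a small margin, and the log2 fold change was 0.43 (SE 0.13, adjusted p = 0.0422, edgeR's quasi-likelihood test). That call was lost under 10 of 23 alternatives (adjusted p 0.000682 to 0.196). Among them it was 0.0665, 0.0935 and 0.196 without unstimulated knockout replicate 1, 2 or 3, 0.116 and 0.122 without CpG knockout replicate 1 or 2, and 0.0937 without CpG wild-type replicate 1. It was 0.127 without both knockout libraries numbered 1. The wild-type libraries were at 193, 175 and 190 CPM without CpG and 216, 196 and 230 CPM with it (log2 fold change 0.20, SE 0.13, adjusted p = 0.506 in the same test). Stimulated knockout libraries thus lay in the range of the stimulated wild-type ones apart from replicate 3, and the unstimulated knockout libraries lay below all unstimulated wild-type ones (log2 fold change -0.29, SE 0.13, adjusted p = 0.245).

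Rab12, which acts in transport from recycling endosomes to lysosomes, had the highest estimate of the list in wild-type cells, 0.40 (SE 0.16, adjusted p = 0.210, edgeR's quasi-likelihood test). Its CPM was 5.80, 6.68 and 6.33 without CpG and 8.41, 8.64 and 7.86 with it, with no overlap. Rab15, of the recycling endosome, had the lowest in both genotypes, -0.66 (SE 0.54) and -0.68 (SE 0.55), on 5 to 68 counts per library. Rab13, of polarised and recycling traffic, had estimates of 0.21 (SE 0.35) and 0.40 (SE 0.33) at 0.938 to 3.49 CPM per library. Rab11a, Rab11b, Rab4b, Rab14, Rab35 and Rab8b had estimates between -0.10 and 0.16 in both genotypes.

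Among the 10 Rabs of the endoplasmic reticulum and Golgi, without pairing, none passed in wild-type neutrophils, and in the knockout Rab33a rose and Rab19 fell. Rab33a, a Golgi Rab, had few reads: 5, 3 and 4 counts in the unstimulated knockout libraries and 37, 23 and 40 with CpG. The ratio of its summed counts, corrected for library size, was 7.27 (95% exact interval 3.98 to 14.5, counting error only), and the adjusted p was 0.00921 in edgeR's quasi-likelihood test. In wild-type libraries it had 11, 2 and 13 counts without CpG and 15, 21 and 39 with it, a ratio of 2.87 (interval 1.82 to 4.68) with an adjusted p of 0.187 in the same test. The knockout call was lost without both libraries numbered 1 (adjusted p = 0.0539) or both numbered 3 (adjusted p = 0.0763, the highest over the alternatives, the lowest being 0.000649), and was 0.0527 without unstimulated knockout replicate 2. Over curated transcripts alone the log2 fold change was 5.43 (adjusted p = 0.0681) against 2.85 over all transcripts. Its counts fell on several transcripts, so that a change in which of them is used cannot be resolved at this depth.

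Rab19, also of the Golgi, was at 10.5, 7.82 and 6.28 CPM in unstimulated knockout libraries and at 4.80, 2.26 and 1.80 CPM with CpG. The groups did not overlap, and the log2 fold change was -1.48 (SE 0.44, adjusted p = 0.0457, edgeR's quasi-likelihood test). The call was lost under 8 of 23 alternatives, including the one without both knockout libraries numbered 3 (adjusted p = 0.136, range over the alternatives 0.000139 to 0.162). It was 0.161 and 0.103 without unstimulated knockout replicate 1 or 2, 0.162 and 0.137 without CpG knockout replicate 2 or 3, and 0.0524 and 0.0565 without wild-type replicate 3 of either treatment. In the wild-type the values were 15.4, 6.09 and 8.18 CPM without CpG and 8.03, 3.06 and 5.87 CPM with it. These overlapped, although within each number the stimulated library was the lower, and the log2 fold change was -0.80 (SE 0.42, adjusted p = 0.388 in the same test). Rab1a, Rab1b, Rab2a, Rab6a and Rab18 had estimates between -0.06 and 0.23 in both genotypes. Rab2b, a minor relative of Rab2a in Golgi transport, had estimates of 0.19 and -0.50, and Rab33b, known from Golgi transport and autophagy, of -0.10 and -0.28. Rab43, also of the Golgi, was at 110, 115 and 119 CPM and then 94.1, 96.4 and 97.0 CPM in wild-type libraries, without overlap (-0.26, SE 0.09, adjusted p = 0.135 in edgeR), and had -0.24 (adjusted p = 0.119) in the knockout.

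Rab23, known as a negative regulator of Hedgehog signalling, fell in the knockout. It had 17.9, 17.4 and 12 CPM without CpG and 9.86, 7.45 and 7.58 CPM with it. The groups did not overlap, the log2 fold change was -0.93 (SE 0.23, adjusted p = 0.0153, edgeR's quasi-likelihood test), and the call held without both libraries numbered 1 and without both numbered 3. It was lost without unstimulated knockout replicate 1 (adjusted p = 0.0688) or 2 (0.0717) and without CpG knockout replicate 2 (0.0571), with a range over the alternatives of 0.000555 to 0.0717. Wild-type libraries read 20.3, 19.7 and 26.2 CPM without CpG and 13.1, 9.41 and 16.6 CPM with it, also without overlap (log2 fold change -0.76, SE 0.22, adjusted p = 0.0589 in the same test). The 2 other members of its list, Rab28 and the ubiquitin ligase adaptor Rab40c, had estimates of -0.28 to -0.18 over both genotypes and did not pass.

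The genes that fell carry letters of 2 other motifs. The stretches below, from the same table, are shown because they hold those matches, which are in capitals. In Rab19 they are 2 overlapping matches to the core of the interferon-stimulated response element (GAAA, any 2 bases, GAAA), read on the other strand, from 10 bases before the start to 5 after it. In Rab23 it is TCACGTG, an E-box of the TFE family, read on the other strand, 218 to 212 bases before the start.
Rab19 promoter, chr6:39381253-39381358, plus strand: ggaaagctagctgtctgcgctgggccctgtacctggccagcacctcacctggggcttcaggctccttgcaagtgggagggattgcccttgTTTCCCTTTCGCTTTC
Rab23 promoter, chr1:33719656-33719755, plus strand: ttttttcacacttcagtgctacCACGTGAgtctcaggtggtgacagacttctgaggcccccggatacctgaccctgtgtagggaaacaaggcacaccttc
The interferon-stimulated response element core was in the windows of 4.0% of all genes and of 1 of the 35 members with a window. TCACGTG was in those of 4.3% of all genes and of 4 of the 35 members (11.4%), namely Rab23, Rab21, Rab24 and Rab5a, of which only Rab23 passed a test. A match is a description of the letters and not of binding.

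The secretory granule Rabs, the group closest in function to Rab27a, had only negative estimates with CpG and no call without pairing. Rab44 was at 454, 531 and 557 CPM in unstimulated wild-type libraries and at 365, 446 and 432 CPM with CpG, without overlap (log2 fold change -0.31, SE 0.12, adjusted p = 0.182, edgeR's quasi-likelihood test). In the knockout it was at 585, 658 and 587 CPM and then 500, 561 and 497 CPM, again without overlap (-0.23, SE 0.12, adjusted p = 0.274). Rab3d, of regulated granule exocytosis, was at 243, 265 and 314 CPM and then 192, 199 and 233 CPM in wild-type libraries, without overlap (-0.40, SE 0.16, adjusted p = 0.198 in the same test). In the knockout its groups overlapped (245, 239 and 217 CPM, then 272, 215 and 171 CPM, log2 fold change -0.09). Rab37, linked to secretion from several cell types, had estimates of -0.26 and -0.12. The median of the 3 was -0.31 in wild-type and -0.12 in knockout neutrophils, and their summed TPM was 327 and 261 without and with CpG in wild-type cells and 375 and 300 in the knockout.

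Same-numbered wild-type libraries deviated together across genes, so the fit with genotype and number as a block bears on these results. With it, 9 members passed in the wild-type, where 16.9% of all genes were called. Rab20 (log2 fold change 1.41, adjusted p = 6.18e-06), Rab32 (0.50, 6e-04), Rab10 (0.37, 0.00469) and Rab33a (1.53, 0.0311) rose by edgeR's quasi-likelihood test. Rab23 (-0.78, adjusted p = 0.00168), Rab19 (-0.80, 0.00799), Rab44 (-0.31, 0.00462), Rab3d (-0.40, 0.00887) and Rab43 of the Golgi (-0.26, 0.0263) fell in the same fit. In the knockout, same-numbered libraries had correlations of 0.62, 0.09 and 0.68, and this fit called 24% of all genes. There Rab7 (-0.30, adjusted p = 0.00444), Rab44 (-0.23, 0.0167) and Rab43 (-0.24, 0.0264) fell by edgeR's quasi-likelihood test. Rab5c (0.24, 0.0275) rose in the same fit, and the knockout members called without pairing kept their calls. The estimates in both genotypes hardly moved from those above and their standard errors were smaller.

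**Figure D3:**
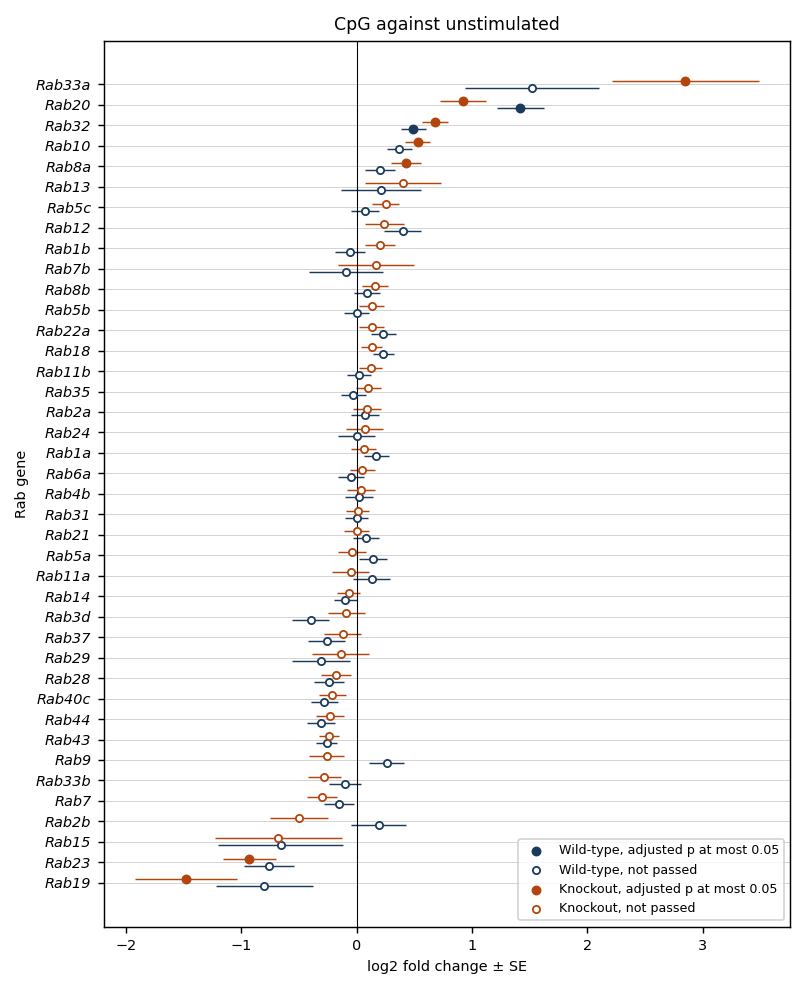
Change of each of the 40 Rab genes with CpG. The x axis is the log2 fold change with its standard error in wild-type (blue) and knockout (orange) neutrophils, rows are genes ordered by the knockout value, and filled points passed an adjusted p of 0.05. Most genes lie close to 0 in both genotypes, and filled points are Rab20 and Rab32 in wild-type and 7 genes in knockout neutrophils.

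No member's response to CpG differed between the genotypes by the test of the difference. The interaction gave 0 members, and 0% of all genes, at an adjusted p of at most 0.05 in edgeR's quasi-likelihood test. At an unadjusted p of at most 0.05 it gave 1 member and 365 genes, and DESeq2 gave 0 members and 2 genes. The single member was Rab9, with an interaction of -0.53 on the log2 scale (SE 0.21, adjusted p = 1 in edgeR). For Rab20 the interaction was -0.50 (SE 0.28) and for Rab33a it was 1.34 (SE 0.88). Across the 40 members the CpG effects in the 2 genotypes, which share no library, had a Pearson correlation of 0.86 and a Spearman correlation of 0.70, against 0.78 and 0.61 across all genes tested. These are descriptions across genes, which are not independent replicates. The sign was the same in 29 of 40 members and in 7604 of 10802 genes.

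Between knockout and wild-type neutrophils 2 other Rab genes differed without CpG and none with it. Without CpG, Rab37 and Rab6a were lower in the knockout and no member was higher, where 4.75% of all genes were called (2.11% higher and 2.64% lower). The median log2 fold change of the members was 0.00, against -0.01 over all genes, and 36 of 40 lay within 0.5 of 0. With CpG no member passed, where 3.92% of all genes were called (1.70% higher and 2.21% lower). At an unadjusted p of at most 0.05 in edgeR there were 9 of 40 members with CpG, beside 1957 of all 10802 genes. DESeq2 called 2 (Rab10 and Rab44, both higher), where it called 6.73% of all genes, and edgeR with library size alone called 2 (Rab37 and Rab6a, both lower), where the split of all genes moved from 184 higher and 239 lower to 155 and 314. The calls for these 4 genes with CpG thus depended on the tool and the scaling. The 2 comparisons with the wild-type share no library, but they are not independent. Deviations of same-numbered libraries were correlated at 0.28, 0.41 and 0.44 in the wild-type and at 0.62, 0.09 and 0.68 in the knockout.

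Rab37 was at 32.7, 28.9 and 27.7 CPM in unstimulated wild-type libraries and at 18.5, 20.2 and 18.8 CPM in unstimulated knockout libraries. The groups were well apart, with a log2 fold change of -0.63 (SE 0.16, adjusted p = 0.0371, edgeR's quasi-likelihood test). With CpG the values were 28.1, 21.9 and 24.4 CPM in wild-type and 22.3, 17.0 and 13.8 CPM in knockout libraries, which overlapped (-0.49, SE 0.16, adjusted p = 0.121). Rab6a, which governs traffic within and from the Golgi, was at 317, 353 and 359 CPM in unstimulated wild-type and at 275, 256 and 233 CPM in unstimulated knockout libraries. These groups did not overlap, and the log2 fold change was -0.43 (SE 0.11, adjusted p = 0.0355 in the same test). With CpG it was at 307, 328 and 357 CPM against 287, 246 and 258 CPM, also without overlap (-0.33, SE 0.11, adjusted p = 0.121).

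Both calls were close to the threshold. That of Rab6a was lost under 11 of 22 alternatives (adjusted p 0.00456 to 0.142) and that of Rab37 under 10 of 22 (0.0122 to 0.161), and leaving out any single library of the 2 unstimulated groups lost each of them (adjusted p 0.0516 to 0.142 for Rab6a and 0.0725 to 0.161 for Rab37). So did leaving out wild-type CpG replicate 1 (0.0802 and 0.0558), and for Rab37 wild-type CpG replicate 3 (0.0520). Without both knockout libraries numbered 1 the adjusted p was 0.0519 for Rab6a and 0.0653 for Rab37, and without both numbered 3 it was 0.0850 and 0.0461. Beside these differences, platelet markers summed to 8.23 to 12.3 TPM in unstimulated wild-type and 3.28 to 5.32 TPM in unstimulated knockout libraries, and monocyte and macrophage markers to 1070 to 1110 TPM and 804 to 921 TPM. In mean TPM, Pf4 was at 6.56 and 1.7, Itga2b at 2.56 and 2.14, Ppbp at 0.69 and 0.697 and Gp9 at 0.233 and 0.0967. Of the 2 platelet genes tested, 1 was lower in the knockout by edgeR's test, and their log2 fold changes were -1.96 and -0.37. Ly6c2 held most of the monocyte and macrophage sum, at means of 997 and 762 TPM. None of the 8 monocyte and macrophage markers passed, and Ccr2 (log2 fold change 0.58) and F13a1 (0.30) had higher estimates in the knockout. The part of these markers in the result was not tested.

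For Rab6a the deposited transcripts divide the difference unequally. The more abundant of its 2 transcripts, with 71.1% of the gene's counts, was at 253 ± 18.5 CPM (SD, n = 3) in unstimulated wild-type and 171 ± 9.24 CPM in unstimulated knockout libraries. With CpG it was at 246 ± 12.1 and 177 ± 24.9 CPM. The less abundant transcript was at 90.5 ± 8.72 and 83.3 ± 11.8 CPM without CpG and at 84.4 ± 13.1 and 86.8 ± 6.07 CPM with it, within its spread. The assignment of reads to transcripts is the authors' estimate, and no test was made on it.

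Some abundant members had higher estimates in the knockout without passing, and others had lower ones. How often groups of 3 libraries failed to overlap among all genes was not counted, so a lack of overlap is description only. Rab7 was at 1330, 1360 and 1210 CPM in unstimulated knockout libraries against 1050, 1110 and 885 CPM in wild-type (log2 fold change 0.36, SE 0.13, adjusted p = 0.154, edgeR's quasi-likelihood test). With CpG its groups overlapped, with an estimate of 0.21. The knockout libraries all lay above the wild-type ones of the same treatment for Rab44, with estimates of 0.25 (SE 0.12, adjusted p = 0.301) and 0.33 (SE 0.12, adjusted p = 0.161) without and with CpG. Rab10 with CpG (0.31, SE 0.11, adjusted p = 0.134) and Rab5b with CpG (0.30, SE 0.11, adjusted p = 0.172) likewise did not overlap and did not pass. Rab23 ran the other way, with estimates of -0.49 (SE 0.22, adjusted p = 0.259) and -0.65 (SE 0.23, adjusted p = 0.140). Rab1b (-0.25, SE 0.13, adjusted p = 0.346) and Rab8a (-0.29, SE 0.13, adjusted p = 0.245) were among the members lower without CpG. Their groups did not overlap, and neither passed edgeR's quasi-likelihood test.

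The median log2 difference between knockout and wild-type was -0.23 over the 3 secretory granule Rabs without CpG and 0.08 with it, with estimates of both signs under each treatment. It was 0.16 and 0.00 over the early endosome list, -0.19 and -0.20 over the late endosome list, 0.00 and 0.09 over the recycling list and 0.01 and 0.01 over the endoplasmic reticulum and Golgi list. Rab11a, Rab3d and Rab8b lie on the same chromosome as Rab27a, chromosome 9, and none of the 3 passed in either comparison (estimates -0.23 to 0.30).

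**Figure D4:**
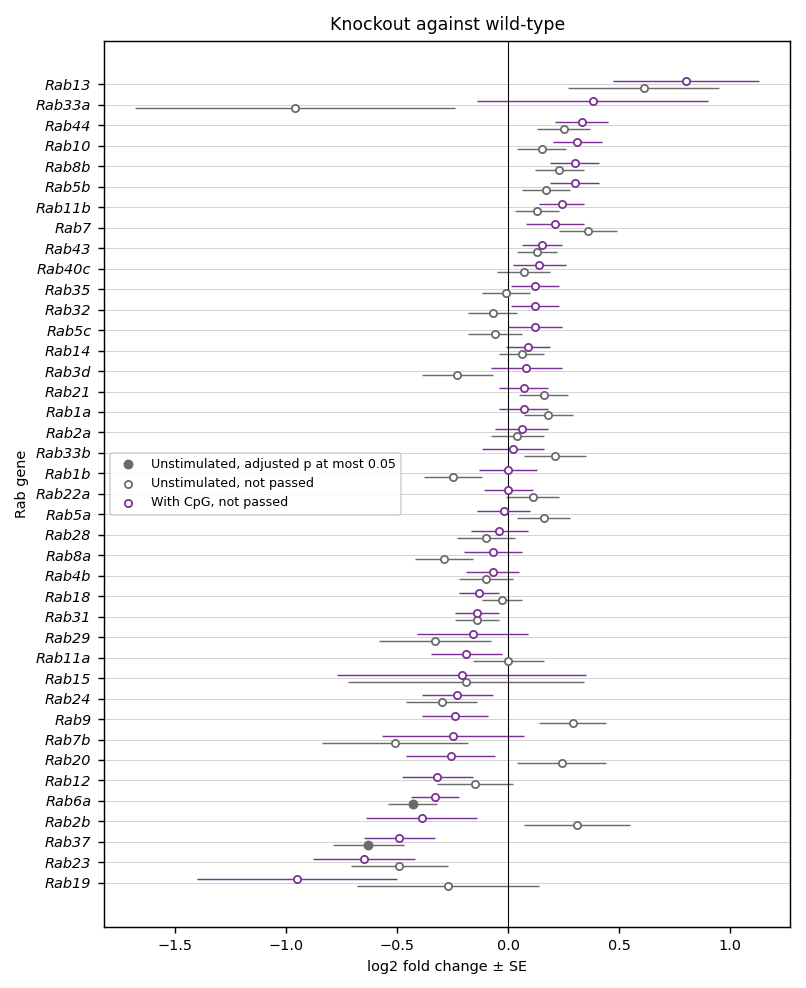
Difference between knockout and wild-type neutrophils for each of the 40 Rab genes. The x axis is the log2 fold change with its standard error without CpG (grey) and with CpG (purple), rows are genes ordered by the value with CpG, and filled points passed an adjusted p of 0.05. The only filled points are Rab37 and Rab6a without CpG, both to the left of 0.

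The genes that load, switch and follow Rab proteins were counted beside the family. Of 124 such genes in the files, 110 were tested. With CpG 3 rose and 2 fell in wild-type neutrophils, where 6.04% of all genes were called, and 7 rose and 4 fell in knockout neutrophils, where 11.6% were. Between genotypes 2 were higher and 2 lower in the knockout under each treatment, where 4.75% of all genes were called without CpG and 3.92% with it. With same-numbered wild-type libraries paired, 9 rose and 10 fell in the wild-type, where 16.9% of all genes were called. The median log2 fold change was -0.05 for CpG in both genotypes, 0.01 for knockout against wild-type without CpG and -0.03 with it. No interaction passed (1 at an unadjusted p of at most 0.05 by edgeR's quasi-likelihood test). The 8 genes of prenylation and of extraction from membranes, which serve every Rab, did not pass in any comparison without pairing, with CpG estimates of -0.39 to 0.46. With pairing, Rabggta, a subunit of the enzyme that prenylates Rab proteins, fell in the wild-type (-0.33, adjusted p = 0.0427 by edgeR's quasi-likelihood test). In the knockout, where the paired fit called 24% of all genes, Rabggta fell (-0.38, 0.0171) and Rabac1 rose (0.30, 0.0285) in the same test.

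The 33 tested GAPs held the largest changes. Tbc1d4 (AS160), a GAP that acts on Rab10 among others, was at 3.5, 2.79 and 2.73 CPM in unstimulated wild-type libraries and at 18.6, 23.4 and 14.1 CPM with CpG. It went from 3.02, 4.39 and 4.69 CPM to 28.3, 42.0 and 32.9 CPM in the knockout. All stimulated libraries were far above all unstimulated ones, with log2 fold changes of 2.64 (SE 0.24, adjusted p = 9.17e-06) and 3.09 (SE 0.23, adjusted p = 9.66e-07) in edgeR's quasi-likelihood test. With CpG it was also higher in the knockout than in the wild-type (0.88, SE 0.20, adjusted p = 0.0276 in the same test), while the interaction did not pass (0.45, SE 0.33). That call was lost under 6 of 22 alternatives (adjusted p 0.00304 to 0.247), among them those without wild-type CpG replicate 1 (0.122) or 3 (0.107) and without knockout CpG replicate 2 (0.131). Without pairing, the other GAPs that rose were Tbc1d24 in the wild-type (0.78, SE 0.21, adjusted p = 0.0398) and, in the knockout, Tbc1d10a (0.81, SE 0.20, adjusted p = 0.0155), Tbc1d2b (0.74, SE 0.16, adjusted p = 0.00679) and Rabgap1 (0.48, SE 0.11, adjusted p = 0.00868). The only GAP to fall without pairing was Rab3gap2, a subunit of the Rab3 GAP complex, in the knockout (-0.45, SE 0.12, adjusted p = 0.0226 in the same test). The call of Tbc1d24 was lost under 15 of 23 alternatives (adjusted p 0.00664 to 0.246, highest without wild-type CpG replicate 2), that of Tbc1d10a under 5 (up to 0.0791), that of Rab3gap2 under 4 (up to 0.103) and that of Rabgap1 under 1 (0.0649, without unstimulated knockout replicate 3). Tbc1d2b kept its call under all 23. With pairing, 3 GAPs rose in the wild-type, Tbc1d4 (2.63, adjusted p = 8.45e-07), Tbc1d24 (0.77, 0.00664) and Tbc1d10a (0.57, 0.0196), and 4 fell, among them Rab3gap2 (-0.30, 0.0162), in edgeR's quasi-likelihood test. The others that fell there were Tbc1d10c (-0.39, adjusted p = 0.00351), Tbc1d14 (-0.30, 0.0119) and Tbc1d2 (-0.28, 0.0302) in the same test. That fit called 16.9% of all genes in the wild-type. In the knockout, where it called 24% of all genes, 6 GAPs rose and 7 fell. Tbc1d10c (-0.33, adjusted p = 0.00762), Tbc1d14 (-0.40, 0.00131), Tbc1d2 (-0.27, 0.0306) and Rab3gap2 (-0.45, 0.000812) were among those that fell in the same test.

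Sgsm2, a GAP known to act on Rab32, was the gene of these lists with the widest gap between genotypes. It had 109, 176 and 166 counts in unstimulated wild-type libraries and 5, 8 and 7 counts in unstimulated knockout libraries. With CpG it had 140, 186 and 92 counts against 11, 25 and 6. The 6 knockout libraries all lay far below the 6 wild-type ones, with log2 fold changes of -4.31 (SE 0.39, adjusted p = 1.36e-05) and -3.34 (SE 0.36, adjusted p = 6e-05) in edgeR's quasi-likelihood test, and both calls held under all 22 alternatives. From the summed counts, the knockout level was 0.0495 times the wild-type level without CpG (95% exact interval 0.0299 to 0.0773) and 0.0981 times with it (0.0697 to 0.135), counting error only. Rab32 itself did not pass between genotypes (-0.07, SE 0.11, and 0.12, SE 0.11).

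Of the 33 tested GEFs, none passed with CpG in the wild-type, where 6.04% of all genes were called. In the knockout 2 rose and 1 fell, where 11.6% of all genes were called. With same-numbered wild-type libraries paired, 4 GEFs rose and 2 fell in the wild-type, where 16.9% of all genes were called. Among them were Dennd2a (0.77, adjusted p = 0.024), Dennd1b (0.46, 0.0207) and Madd (-0.30, 0.00972) by edgeR's quasi-likelihood test. The paired fit called 4 GEFs higher and 2 lower with CpG in the knockout, where it called 24% of all genes. Without pairing, those that rose in the knockout were Dennd2a, a GEF for Rab9 (log2 fold change 1.2, SE 0.27, adjusted p = 0.00978), and Dennd1b, a GEF for Rab35 (0.66, SE 0.14, adjusted p = 0.00537), by edgeR's quasi-likelihood test. Madd, a GEF for Rab3 proteins and Rab27, was at 122, 123 and 126 CPM in unstimulated wild-type and at 171, 190 and 157 CPM in unstimulated knockout libraries. The groups did not overlap, and it was higher in the knockout (0.48, SE 0.11, adjusted p = 0.0245 in the same test). With CpG it read 98.6, 104 and 99.1 CPM against 124, 145 and 109 CPM, with an adjusted p of 0.142. It was also the GEF that fell with CpG in the knockout without pairing (-0.46, SE 0.11, adjusted p = 0.0156 in the same test). The genotype call was lost under 6 of 22 alternatives (adjusted p 0.00139 to 0.704), among them those without unstimulated wild-type replicate 1 (0.0693) or 3 (0.0538) and without unstimulated knockout replicate 1 (0.0802) or 2 (0.145). Without unstimulated knockout replicate 2 the CpG calls of Madd (0.0948) and Dennd2a (0.0580) were lost. Over curated transcripts alone, the log2 fold changes were 7.89 for Dennd2a (adjusted p = 0.216), 0.36 for Dennd1b (0.0862), and 1.04 (0.704) and -0.81 (0.752) for Madd between genotypes and with CpG.

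Among 36 tested effectors, Rab11fip5, which links Rab11 to membranes and motors, moved in every comparison but the interaction. It was at 23.5, 27.6 and 23.9 CPM in unstimulated wild-type libraries and at 13.4, 13.9 and 14.9 CPM with CpG, and at 44.2, 44.1 and 42.1 CPM and then 24.0, 24.3 and 16.6 CPM in the knockout. It thus fell with CpG in both genotypes (log2 fold change -0.83, SE 0.14, adjusted p = 0.00252, and -1.01, SE 0.14, adjusted p = 0.000272) by edgeR's quasi-likelihood test. It was higher in the knockout without CpG (0.80, SE 0.14, adjusted p = 0.00349) and with it (0.62, SE 0.14, adjusted p = 0.0269 in the same test), the last call being lost under 7 of 22 alternatives (adjusted p 0.00131 to 0.153). Without wild-type CpG replicate 1 or 2 it was 0.142 and 0.0586, and without knockout CpG replicate 1 or 2 it was 0.0779 and 0.0866. Over curated transcripts alone the calls in the wild-type with CpG (0.0570) and between genotypes without CpG (0.0577) were lost too. Rab11a and Rab11b, its partners, did not pass in any comparison.

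Rilpl2, an effector of Rab8 and Rab10 once they are phosphorylated, rose in both genotypes, from 167, 119 and 138 CPM to 220, 180 and 222 CPM and, in the knockout, from 122, 132 and 101 CPM to 182, 204 and 164 CPM. The log2 fold changes were 0.55 (SE 0.15, adjusted p = 0.0406) and 0.63 (SE 0.15, adjusted p = 0.0115) in edgeR's quasi-likelihood test, the wild-type call being lost under 8 of 23 alternatives (up to 0.153, without unstimulated replicate 2) and the knockout call under 2 (up to 0.0645, without unstimulated replicate 3). The Golgi tether Gcc2 fell in the wild-type (-0.42, SE 0.11, adjusted p = 0.0339) and Rab11fip4, another Rab11 effector, in the knockout (-0.98, SE 0.25, adjusted p = 0.0224). These calls were lost under 8 (up to 0.215) and 5 (up to 0.645) of 23 alternatives, and Rab11fip4 was at -1.85 over curated transcripts alone. With pairing, 2 effectors rose and 3 fell in the wild-type, where 16.9% of all genes were called. Among them were Rilpl2 (0.56, adjusted p = 0.000315), Gcc2 (-0.42, 0.00858), Rab11fip5 (-0.83, 0.000542) and Rab11fip4 (-0.73, 0.000229) in the same test. The paired fit called 1 effector higher and 2 lower with CpG in the knockout, where it called 24% of all genes.

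Lrrk1, a kinase that phosphorylates Rab7, was lower in the knockout without CpG (8.96, 8.08 and 7.21 CPM against 2.64, 3.95 and 5.61 CPM) and with it (5.25, 5.51 and 6.74 CPM against 2.97, 2.94 and 2.97 CPM). The log2 fold change was -0.98 in both (SE 0.24, adjusted p = 0.0314, and SE 0.25, adjusted p = 0.0430, in the same test). The call was lost under 10 of 22 alternatives without CpG (up to 0.839) and under 13 of 22 with it (up to 0.972), besides 1 in which the direction turned. Over curated transcripts alone the difference with CpG was 0.20, so its direction depends on the predicted transcripts.

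**Figure D5:**
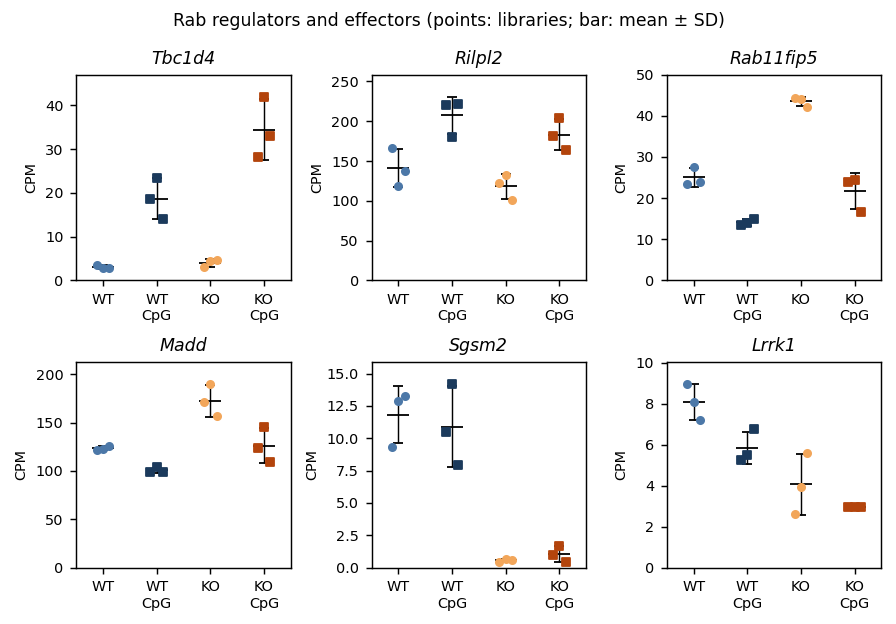
Level of 6 regulators and effectors of Rab proteins. The y axis is TMM-scaled CPM from 0, points are libraries, and bars are the mean ± SD of 3 libraries of wild-type (WT) and knockout (KO) neutrophils without and with CpG. Tbc1d4 is higher and Rab11fip5 lower with CpG in both genotypes, and Sgsm2 is close to 0 in all 6 knockout libraries.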

How the data were processed

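PolyA RNA of 12 libraries was sequenced at BGI Genomics, per the labels. Estimated counts (expected counts per RefSeq transcript) and TPM were made by the authors and used as deposited. FPKM, scaled for length and depth by the authors per the file headers, were not used here. The submitters' processing notes name Bowtie2 (version not stated), RSEM 1.2.28 and genome build GRCm39, with no roles given. The sources used here give neither strandedness nor alignment rates.

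Estimated counts of the 54716 transcripts (24908 curated, the rest predicted) were summed per NCBI gene, giving 15986 genes, and rounded. Of these, 15883 matched a symbol in the RefSeq annotation of GRCm38.p6, used for names and chromosomes only, and the other 103 held up to 0.101% of counts. The summed counts of all 40 members were whole within 0.05 before rounding in every library, so member reads were not shared with other genes in the deposited estimates. Over all genes, 96.5% of the non-zero sums of a gene in a library were whole. TPM were summed per gene and used for levels between genes. The filter (filterByExpr, minimum count 10 and total 15) kept 10802 genes. One quasi-likelihood fit in edgeR 4.0.16 (R 4.3.3) with TMM scaling and 1 mean per group covered all 12 libraries, with 8 residual degrees of freedom, and a common dispersion of 0.0293. Benjamini-Hochberg adjustment covered all genes tested in each of 5 comparisons. The code was checked on simulated data.

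Members and lists were chosen with earlier results of these data known. Named were members called in any comparison, the 10 highest in mean TPM, the secretory granule list, members next to the count rule, those with the highest and lowest estimate of each role list in each CpG comparison, and up to 8 called regulators per comparison with the largest changes. Rab1a, Rab2a, Rab2b, Rab4b, Rab5a, Rab7b, Rab9, Rab11a, Rab13, Rab14, Rab18, Rab21, Rab22a, Rab24, Rab33b, Rab35, Rab40c, Rab43, Rabgap1, Rab3gap2, Tbc1d2, Tbc1d10c, Tbc1d14, Rabggta and Rabac1 were named beside these after their values were seen.

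Replicate numbers were checked for pairing by correlating deviations of log CPM from group means. For libraries of the same number, r was 0.28, 0.41 and 0.44 in the wild-type, each above 0.1, so the blocked fit is given beside wild-type CpG results. In the knockout it was 0.62, 0.09 and 0.68, and the members that the blocked fit added there are named beside the wild-type ones.

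RefSeq promoter windows of GRCm38.p6 matched 35 of the 40 members (not Rab18, Rab2a, Rab37, Rab44 and Rab7b). They were searched on both strands for the κB consensus and the AP-1, PU.1, TFE family E-box and interferon-stimulated response element motifs spelled out beside the results; no match to one motif overlapped a match to another. Protein sequences were not used here.

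Alternatives were other scalings and filters, DESeq2 1.42.0, replicate blocks, curated transcripts only, only the libraries compared and leaving out each library. Leaving out both knockout libraries numbered 1 or 3 was added after seeing the data.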

Additional observations from a re-analysis of the deposited data

How the results depend on the processing

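With CpG, Rab20 in the wild-type and Rab32, Rab11fip5 and Tbc1d2b in the knockout and Tbc1d4 in both genotypes kept their calls under every alternative run, as did Sgsm2 between genotypes under both treatments. The interaction stayed at 0 members and 0 regulators and effectors throughout. Lrrk1 between genotypes with CpG turned from -0.98 to 0.20 with curated transcripts only. The cause of the moves below was not tested, except that leaving out libraries leaves fewer samples.

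Percentages in brackets are the share of all genes called in the same setting. Members called with CpG in the wild-type (2, 6.04%) numbered 4 with library size alone (2 rose and 2 fell, 6.63%) and 5 with DESeq2 (7.21%). They numbered 1 to 4 when 1 library was left out (3.86 to 6.94%). In the knockout (7, 11.6%) they numbered 4 with curated transcripts only (8.52%) and 3 to 7 with 1 library left out (7.42 to 12.2%). There were 4 without both knockout libraries numbered 1 (8.79%) and 4 without both numbered 3 (8.84%). Between genotypes without CpG (2, 4.75%) they numbered 1 with no filter (3.63%) and 0 with curated transcripts only (2.78%). They numbered 0 to 2 with 1 library left out (2.52 to 5.53%), 0 without both numbered 1 (3.1%) and 1 without both numbered 3 (5.84%). With CpG (0, 3.92%) they numbered 2 with library size alone (4.34%) and 2 with DESeq2 (6.73%). They numbered 0 to 2 with 1 library left out (2.13 to 6.4%), 1 without both numbered 1 (3.89%) and 2 without both numbered 3 (7.59%).

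Regulators and effectors called with CpG in the wild-type (5, 6.04%) numbered 3 with no filter (4.35%) and 2 with curated transcripts only (4.17%). They numbered 2 to 6 with 1 library left out (3.86 to 6.94%). In the knockout (11, 11.6%) they numbered 17 with library size alone (8 rose and 9 fell, 14%), where all genes called went from 818 higher and 439 lower to 739 and 778. They numbered 7 to 13 with 1 library left out (7.42 to 12.2%). Between genotypes without CpG (4, 4.75%) they numbered 7 with DESeq2 (6.67%) and 1 with curated transcripts only (2.78%). They numbered 2 to 6 with 1 library left out (2.52 to 5.53%) and 2 without both numbered 1 (3.1%). With CpG (4, 3.92%) they numbered 9 with DESeq2 (6.73%), 1 with curated transcripts only (2.23%) and 1 with only the libraries compared (2.41%). They numbered 1 to 8 with 1 library left out (2.13 to 6.4%) and 9 without both numbered 3 (7.59%).

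With genotype and number as a replicate block, 9 members and 19 regulators and effectors were called in the wild-type with CpG (16.9% of all genes). In the knockout 11 members and 24 regulators and effectors were called (24% of all genes). Same-numbered knockout libraries had correlations of 0.62, 0.09 and 0.68, against 0.28, 0.41 and 0.44 in the wild-type. With number as a replicate block over all libraries, 7 regulators and effectors were called between genotypes without CpG (6.05% of all genes). The blocks moved no other count of member or regulator calls by over 1.5 times.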

Other observations

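Of the 40 members, 13 had a single transcript in the deposited files and 27 had more. For 25 members the leading transcript held at least 90% of the counts. The leading transcript was a predicted model for Rab44, Rab11b and Rab9. Rab44 was spread most widely, over 9 transcripts, of which the leading one held 37.0% of its counts. In Rab11b the leading, predicted transcript held 57.9% and the curated one 35.3%, and in Rab9 they held 66.5% and 33.4%. Both transcripts of Rab19 contributed, at 58.2% and 41.8%. These shares are the authors' estimates.

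The promoter windows of the 35 members with an entry were richer in GC than those of all 27025 genes with a window, with a median of 63.0% against 52.7%, and held a median of 23.5 CG dinucleotides against 7 over all windows. Members were kept by their counts, while the windows of all genes were not, and no comparison with expressed genes alone was made. Medians are over windows, of which Rab15 and Rab43 had 4 each.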
